A study of Homo sapiens with 4 samples.

Results

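The genes described here are 10 feedback genes and transcriptional targets of the RAS, RAF, MEK and ERK (MAPK) pathway, measured by ribosome footprints in human melanocytes. They are the dual-specificity phosphatases DUSP4, DUSP5 and DUSP6, the Sprouty proteins SPRY2 and SPRY4, the Sprouty-related proteins SPRED1 and SPRED2, the transcription factors ETV4 and ETV5, and PHLDA1. They were chosen by name, and all 10 were found among the 14355 gene names of the tables. The cells were Hermes 4B, an immortalised, genetically wild-type line of skin melanocytes, and they received an siRNA that targets CDH3-AS1, an antisense noncoding RNA of the P-cadherin gene CDH3, or a control siRNA. Batches 1 and 2 each hold 1 library per siRNA, 4 in all. All cells grew in serum with the phorbol ester TPA, endothelin-1, cholera toxin and stem cell factor, and cycloheximide was added at harvest to hold ribosomes on the RNA. It is 1 line, the labels do not say whether the libraries came from separate cultures, and p-values therefore measure only the spread between these 4 libraries, which may be technical.

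ERK is switched on by receptor kinases through RAS, RAF and MEK, and by protein kinase C, which phorbol esters activate. Active ERK induces its own brakes: phosphatases that remove the activating phosphates from ERK, and Sprouty and SPRED proteins that act upstream of RAF. Melanocytes in culture depend on this pathway through the stem cell factor and endothelin receptors. Inherited loss of SPRED1 causes Legius syndrome, in which pigmented café-au-lait spots form on the skin. ETV4 and ETV5 belong to the ETS family of transcription factors and PHLDA1 is a small pleckstrin homology-like protein. Their RNA levels are used with those of the brakes as a readout of ERK output.

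Libraries held 6759850 and 2858835 reads with CDH3-AS1 siRNA and 2034854 and 5994485 reads with control siRNA, replicates 1 and 2 in each case. All 7 melanocyte markers had reads in each library, with the dopachrome tautomerase gene DCT the lowest at 5.36 to 18.3 CPM, counted on coding reads. Control siRNA replicate 1 also held 2307 CPM of 12 skeletal muscle genes and 492 CPM of 6 fibroblast genes, where the other libraries had at most 10.2 and 4.88 CPM. Nearly all of that fibroblast sum was COL1A1 (379 CPM) and COL1A2 (111 CPM), with COL3A1, DCN and PDGFRA at 0 in that library. The 5 keratinocyte markers summed to between 8.03 and 35.3 CPM in all 4, nearly all of it KRT10, with KRT5 and DSG3 at 0. The part of these transcripts in the results below was not tested. Fold changes are also given without control siRNA replicate 1, singly or in a range over left-out libraries. With a library left out the batches are no longer balanced between the siRNAs, so these values also carry differences between batches.

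All 10 genes passed the filter on low counts, and their density of footprints along the coding sequence spanned a wide range. Levels are coding-sequence reads as CPM with TMM scaling, which corrects library sizes for differences in composition, and density is that CPM per kilobase of the coding sequence with most reads. PHLDA1 was the densest, at 875 to 1017 CPM per kilobase over the 4 libraries, above 98.9% of all 10469 tested genes. DUSP4 followed at 334 to 446 (above 96.0% of genes), ETV5 at 196 to 230 (91.6%), DUSP6 at 123 to 207 (88.3%) and SPRY2 at 80.9 to 141 (83.7%), all in CPM per kilobase. SPRY4 stood at 36.3 to 78.7, DUSP5 at 15.6 to 45.2, SPRED2 at 19.0 to 25.0, ETV4 at 13.7 to 19.8 and SPRED1 at 10.4 to 18.4 CPM per kilobase. PHLDA1 and DUSP4 did not overlap with any neighbour in that order over the 4 libraries, and SPRY2 did not overlap with SPRY4, by a narrow margin. Each other pair of neighbours overlapped. SPRED1 was denser than 32.3% of the tested genes.

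**Figure D1:**
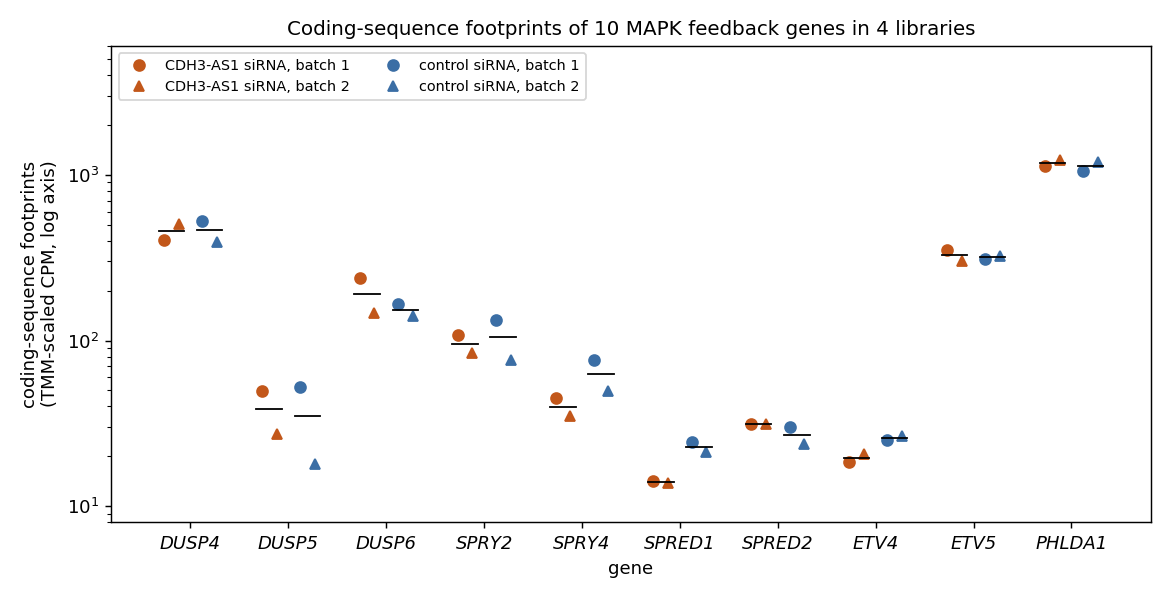
Coding-sequence footprints (TMM-scaled CPM, log axis) of the 10 genes in each library, with CDH3-AS1 siRNA libraries in orange and control libraries in blue, circles for batch 1, triangles for batch 2 and a bar at the mean of each group (n = 2). PHLDA1 is the highest in all 4 libraries, at 1055 to 1227 CPM, and the orange and blue points of SPRY4, SPRED1, SPRED2 and ETV4 do not overlap.

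No feedback gene passed the test between CDH3-AS1 siRNA and control siRNA. By edgeR's quasi-likelihood test 0 of the 10 genes had an adjusted p under 0.05, where 0% of all 10469 tested genes did, and 0 had an unadjusted p under 0.05, against 225 of all genes. With the batch as a replicate block 0 of the 10 were called, where 1.62% of all genes were, and 1 (SPRY4) had an unadjusted p under 0.05, against 1025 of all genes. DESeq2 called 0 of the 10 with and without the block. Fitted log2 fold changes ran from -0.68 for SPRED1 to 0.32 for DUSP6 with a median of 0.01, beside a median of -0.03 over all genes, whose 5th and 95th percentiles were -0.75 and 0.69. The median size of the change, regardless of sign, was 0.19 for the 10 genes and 0.25 for all genes. Within batches 1 and 2 the median of the 10 was -0.20 and 0.04. In bulk libraries, fewer cells with a transcript and less RNA per cell cannot be told apart.

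The libraries of the siRNAs did not overlap for 4 of the 10 genes. CDH3-AS1 siRNA libraries were both below the controls for SPRED1, SPRY4 and ETV4, which is 3 of 10 where 14.1% of all genes were, and both above them for SPRED2, which is 1 of 10 where 13.3% were. The other 6 overlapped. Of these DUSP6 and PHLDA1 had higher values with CDH3-AS1 siRNA in each batch, and DUSP4, DUSP5, SPRY2 and ETV5 differed in opposite directions in the batches.

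**Figure D2:**
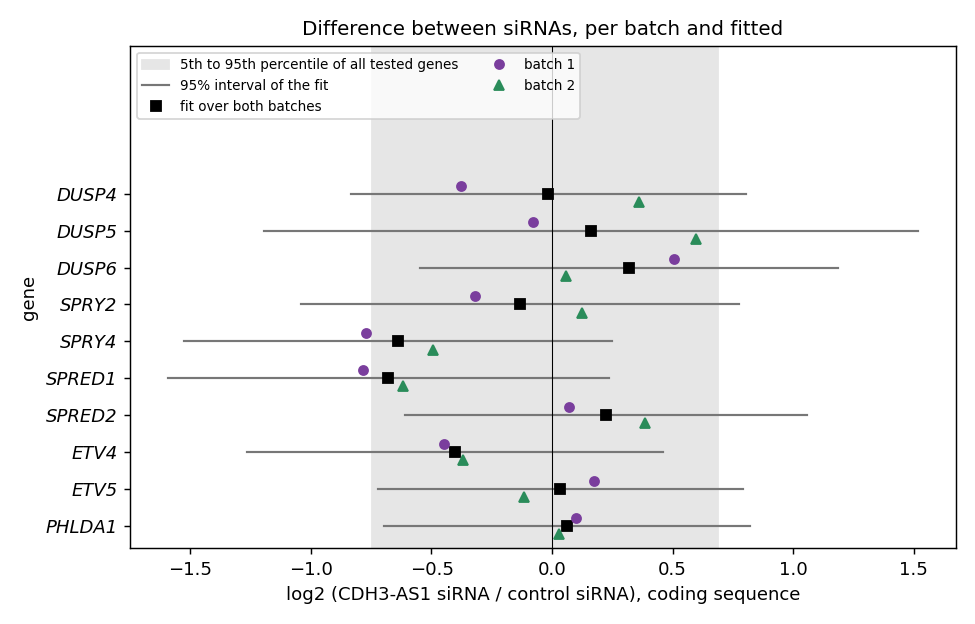
Log2 ratio of CDH3-AS1 siRNA over control siRNA for coding-sequence footprints, within batch 1 (circles), within batch 2 (triangles) and fitted over both (squares) with the 95% interval of edgeR's fit without a block. Grey marks the 5th to 95th percentile of fitted changes over all tested genes, and each of the 10 fitted values lies inside it with an interval that includes 0. With the replicate block, not drawn, the interval of SPRY4 ran from -1.22 to -0.04 and those of the other genes included 0.

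Among the phosphatases, DUSP4, which acts on ERK and other MAP kinases in the nucleus, had 407 and 508 CPM with CDH3-AS1 siRNA, against 529 and 396 CPM with control siRNA. The groups overlapped, with the control the higher library in batch 1 and CDH3-AS1 siRNA the higher in batch 2. The fitted log2 fold change was -0.02 (SE 0.34, 95% interval -0.84 to 0.80). DUSP4 (chromosome 8, 29333064 to 29350684, GRCh38.p14) had between 992 and 2568 coding reads per library.

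DUSP6, a cytoplasmic phosphatase specific for ERK, had 237 and 146 CPM with CDH3-AS1 siRNA, against 167 and 140 CPM with control siRNA. Only the batch 1 library with CDH3-AS1 siRNA stood apart, 1.42 times its batch control, where the ratio in batch 2 was 1.04. The log2 fold change was 0.32 (SE 0.36, 95% interval -0.55 to 1.19), and leaving out CDH3-AS1 siRNA replicate 1 gave -0.07, leaving out its replicate 2 gave 0.63 and leaving out control siRNA replicate 1 gave 0.48. DUSP6 (chromosome 12, 89347235 to 89352501) had reads on a transcript with a 1146-base coding sequence and on one with a shorter coding sequence of 771 bases. The shorter one was credited with 29.2% (95% interval 26.9 to 31.6) and 32.2% (27.4 to 37.2) of the gene's coding reads with CDH3-AS1 siRNA, against 39.6% (34.2 to 45.3) and 33.5% (30.2 to 36.9) with control siRNA. The intervals of the siRNAs overlapped in batch 2 and not in batch 1. How reads were divided among overlapping transcripts is not given in the sources used here, so these shares need not be isoform use.

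DUSP5, the nuclear phosphatase specific for ERK (chromosome 10, 110497907 to 110511533), had 49.4 and 27.3 CPM with CDH3-AS1 siRNA, against 52.3 and 18.0 CPM with control siRNA. Batch 1 was high and batch 2 low with either siRNA. The log2 fold change of 0.16 (SE 0.57, 95% interval -1.19 to 1.52) had the widest interval of the 10, and it was 1.12 with control siRNA replicate 1 left out and -0.41 with control siRNA replicate 2 left out, where the batches are no longer balanced.

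Sprouty proteins restrain receptor kinase signalling upstream of ERK. SPRY4 (chromosome 5, 142310430 to 142325021) had 44.7 and 35.2 CPM with CDH3-AS1 siRNA, against 76.2 and 49.5 CPM with control siRNA. Both libraries with CDH3-AS1 siRNA were below both controls, at ratios of 0.586 in batch 1 and 0.710 in batch 2. The log2 fold change of -0.64 (SE 0.37, 95% interval -1.53 to 0.25) had an adjusted p of 1.00 in edgeR's quasi-likelihood test, and with the replicate block the value of -0.63 (SE 0.30) had an adjusted p of 0.443. The 95% interval with the block, which is not adjusted for the number of genes, ran from -1.22 to -0.04. Without the block, leaving out control siRNA replicate 1, the library with muscle transcripts, gave -0.27, and leaving out control siRNA replicate 2 gave -0.90. With either left out the batches are no longer balanced. The log2 ratios within batches 1 and 2 were -0.77 and -0.49.

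SPRY2 (chromosome 13, 80335976 to 80341126) had 107 and 83.7 CPM with CDH3-AS1 siRNA, against 134 and 76.7 CPM with control siRNA. The groups overlapped, and batch 1 was higher than batch 2 with either siRNA. Its log2 fold change was -0.13 (SE 0.38, 95% interval -1.04 to 0.78), and became 0.35 with control siRNA replicate 1 left out and -0.47 with control siRNA replicate 2 left out.

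SPRED proteins carry neurofibromin, which inactivates RAS, to the membrane. SPRED1 (chromosome 15, 38252836 to 38357249) had 14.3 and 13.8 CPM with CDH3-AS1 siRNA, against 24.5 and 21.2 CPM with control siRNA. These rest on 90 and 35 coding reads with CDH3-AS1 siRNA and 46 and 120 with control siRNA. The CDH3-AS1 siRNA libraries were close to each other and both below the controls, at ratios of 0.581 and 0.652 in batches 1 and 2. The group means of 14.04 ± 0.305 CPM with CDH3-AS1 siRNA and 22.9 ± 2.34 CPM with control siRNA (SD, n = 2 each) differed by more than the replicates of a group, and the log2 fold change was -0.68 (SE 0.38, 95% interval -1.60 to 0.24). By edgeR's quasi-likelihood test its adjusted p was 1.00 without the block and 0.584 with it (-0.68, SE 0.38). Leaving out any 1 library left it between -0.77 and -0.55. With reads of all transcript regions in place of coding reads it was -0.27.

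SPRED2 (chromosome 2, 65307175 to 65432599), the paralog of SPRED1, had 31.4 and 31.2 CPM with CDH3-AS1 siRNA, against 29.9 and 23.9 CPM with control siRNA. The groups did not overlap, but batch 1 values were nearly the same, at a ratio of 1.05, against 1.31 in batch 2. The log2 fold change was 0.22 (SE 0.35, 95% interval -0.61 to 1.06), and became 0.08 with control siRNA replicate 2 left out and 0.42 with control siRNA replicate 1 left out.

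ETV4 (chromosome 17, 43527846 to 43546340) had 18.4 and 20.5 CPM with CDH3-AS1 siRNA, against 25.1 and 26.5 CPM with control siRNA. Both values with CDH3-AS1 siRNA were below both controls, at ratios of 0.733 and 0.774 in batches 1 and 2. The log2 fold change of -0.40 (SE 0.36, 95% interval -1.27 to 0.46) did not pass the test, and leaving out any 1 library left it between -0.48 and -0.32. It rested on 116 and 52 coding reads with CDH3-AS1 siRNA and 47 and 150 with control siRNA.

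ETV5 (chromosome 3, 186046314 to 186109089), far more abundant, had 353 and 301 CPM with CDH3-AS1 siRNA, against 312 and 325 CPM with control siRNA. The groups overlapped, and the log2 fold change was 0.03 (SE 0.32, 95% interval -0.72 to 0.79). PHLDA1 (chromosome 12, 76025447 to 76031776) had 1131 and 1227 CPM with CDH3-AS1 siRNA, against 1055 and 1202 CPM with control siRNA, at a log2 fold change of 0.06 (SE 0.32, 95% interval -0.70 to 0.82). Ratios were 1.07 and 1.02 in batches 1 and 2, and with the replicate block the interval ran from -0.35 to 0.48.

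Within 3 paralog pairs (SPRED1 with SPRED2, SPRY4 with SPRY2, ETV4 with ETV5) the less dense member took a smaller share of the pair's coding reads in both CDH3-AS1 siRNA libraries. Such a share needs no scaling between libraries. The pairs were chosen after the values were seen, so the shares restate the direction of the fold changes. SPRED1 held 31.3% (95% interval 25.9 to 37.0) and 30.7% (22.4 to 40.0) of this pair's coding reads with CDH3-AS1 siRNA, against 45.1% (35.2 to 55.3) and 47.1% (40.8 to 53.4) with control siRNA. Group means were 31.0% ± 0.388 with CDH3-AS1 siRNA and 46.1% ± 1.39 with control siRNA (SD, n = 2 each), a difference of -15.1 points that was larger than the spread between replicates. In batch 2 the counting intervals of the siRNAs did not overlap, and in batch 1 they did.

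SPRY4 held 29.4% (26.5 to 32.4) and 29.6% (24.5 to 35.1) of the reads of SPRY4 and SPRY2 with CDH3-AS1 siRNA, against 36.3% (31.5 to 41.3) and 39.2% (35.6 to 42.9) with control siRNA. ETV4 held 4.95% (4.11 to 5.91) and 6.40% (4.81 to 8.30) of the reads of ETV4 and ETV5 with CDH3-AS1 siRNA, against 7.42% (5.51 to 9.75) and 7.54% (6.42 to 8.79) with control siRNA. The ETV4 intervals overlapped in each batch, and those of SPRY4 did in batch 1. With 2 libraries against 2 the exact permutation test, two-sided, gave p = 0.333 for each of the 3 pairs, which is the smallest it can give. All intervals on shares were computed by the Clopper-Pearson method and reflect counting error alone.

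**Figure D3:**
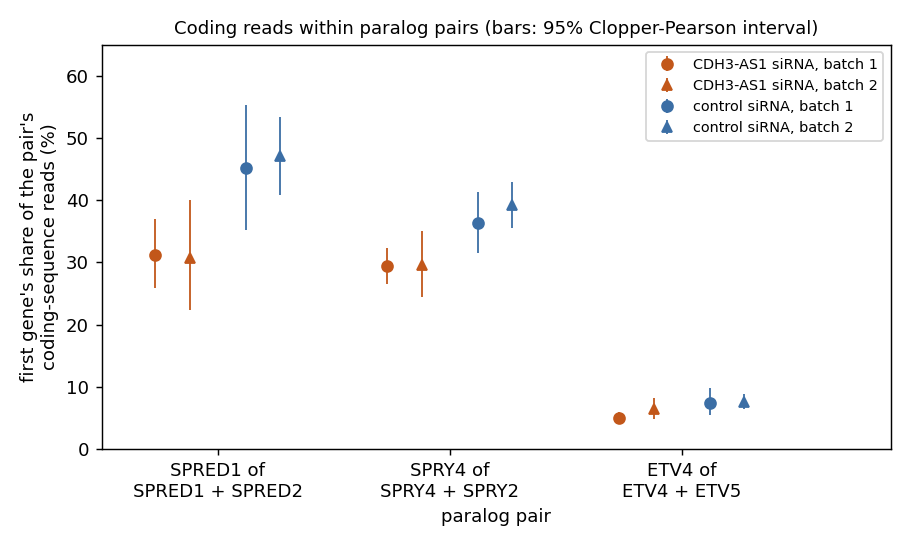
Share of a paralog pair's coding-sequence reads held by the first-named gene (percent), per library, with 95% Clopper-Pearson intervals; colours and symbols mark the siRNA and batch. SPRED1 sits at 30.7% and 31.3% with CDH3-AS1 siRNA and at 45.1% and 47.1% with control siRNA.

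The feedback genes also differed in where on the transcript their footprints lay. Over all genes, 5′ UTR reads were 3.90% and 7.21% of 5′ UTR and coding reads in the CDH3-AS1 siRNA libraries and 6.19% and 5.13% in the controls. Of the 10 genes, 6 had a pooled 5′ UTR share above that of at least 82.7% of the 10394 genes with at least 50 such reads, whose median share was 3.18%. SPRED1 was the most extreme, at 61.7% over all libraries, above 98.8% of genes, and only 1.96% of genes had a share above 50%. SPRED2 stood at 38.4%, SPRY2 at 19.7%, DUSP4 at 16.2%, DUSP5 at 14.7% and DUSP6 at 14.6%. SPRY4 and ETV4 were at 4.91% and 4.95%, and ETV5 at 0.715%.

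These shares take the reads of all transcripts of a gene together, and for some genes the 5′ UTR and coding reads were credited to different transcripts. Of the 386 SPRY2 reads in a 5′ UTR, 335 lay on a transcript with no coding reads, while all 1574 coding reads lay on the other. Within that transcript the SPRY2 share was 3.14%, above 70.9% of the 10170 genes with at least 50 such reads on the transcript with most coding reads, and the other 5 of those 6 genes stood above at least 89.7%. The median share by this measure was 0.143%, against 3.18% with all transcripts together, so ranks by the 1 and the other are not on the same scale. By the same measure SPRY4 was at 0 of 794 reads, which allows a share of up to 0.378%, and all 41 of its 5′ UTR reads lay on other transcripts. ETV4 was at 0.629%, above 56.4% of the 10170 genes, and DUSP6 at 20.0%. SPRED1, SPRED2 and DUSP5 had the same shares, and DUSP4 was at 16.1%.

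PHLDA1 had 0 reads in its 5′ UTR against 19025 in the coding sequence. The 5′ UTR of the transcript that holds its coding reads is 35 bases long; 0 of 1979 reads in the shallowest library allows a share of up to 0.152%, taken as 3 counts of the total, and the two-sided 95% Clopper-Pearson interval ends at 0.186%, both for counting error only. SPRED1, SPRED2 and DUSP5 each had reads on 1 transcript only, so density per base can be compared within it. SPRED1 had 6.15 times as many reads per base in its 350-base 5′ UTR as in its 1335-base coding sequence. The ratio was 1.28 for SPRED2 (612 and 1257 bases) and 0.925 for DUSP5 (215 and 1155 bases).

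The SPRED1 share in the 5′ UTR was 54.5% (95% interval 47.3 to 61.6) and 74.6% (66.5 to 81.7) with CDH3-AS1 siRNA, against 44.6% (33.7 to 55.9) and 64.8% (59.5 to 69.9) with control siRNA. It was higher with CDH3-AS1 siRNA by 9.97 points in batch 1 and by 9.83 points in batch 2, and higher in batch 2 than in batch 1 with either siRNA. The intervals of the siRNAs overlapped within each batch. As CPM on the coding scale, its 5′ UTR reads stood at 17.1 and 40.7 with CDH3-AS1 siRNA, against 19.7 and 39.1 with control siRNA. Within each batch the siRNAs thus lay closer together in 5′ UTR reads than in coding reads.

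The SPRED2 share was 32.2% (26.9 to 37.9) and 42.3% (33.9 to 51.1) with CDH3-AS1 siRNA, against 32.5% (22.6 to 43.7) and 45.6% (39.3 to 52.0) with control siRNA. As for SPRED1, batch 2 was the higher, and the siRNAs overlapped within batches. DUSP4 had 17.0% (15.7 to 18.4) and 18.1% (16.3 to 20.1) with CDH3-AS1 siRNA, against 15.2% (13.2 to 17.4) and 14.4% (13.1 to 15.8) with control siRNA. The DUSP4 groups did not overlap, though the intervals did in batch 1. SPRY2 had 18.9% and 26.9% with CDH3-AS1 siRNA, against 14.6% and 19.8% with control siRNA, and its groups overlapped. On the transcript with its coding reads SPRY2 had 3.70% and 4.93% with CDH3-AS1 siRNA, against 1.18% and 2.47% with control siRNA, where the groups did not overlap. How many of all genes had shares without overlap was not counted. Of 6121 genes with at least 50 such reads in every library, 17.7% had a higher share with CDH3-AS1 siRNA in both batches. DUSP4, SPRY2, SPRED1 and ETV5 were among these, and SPRED2 was among the 13.2% with a lower share in both. The ETV5 shares rested on 10 and 12 reads in the 5′ UTR with CDH3-AS1 siRNA, against 1 and 16 with control siRNA.

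DUSP5 and DUSP6 shares differed between libraries more than between siRNAs. DUSP5 had 7.69% and 27.4% with CDH3-AS1 siRNA, against 23.4% and 15.0% with control siRNA. DUSP6 had 16.3% and 14.4% with CDH3-AS1 siRNA, against 19.5% and 8.94% with control siRNA. For both genes the control was the higher library in batch 1 and the lower in batch 2, as was the share over all genes.

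The change in 5′ UTR reads relative to coding reads was tested over 3891 genes by edgeR's quasi-likelihood test of a region by siRNA term, a test chosen after the data were seen. Of the 8 feedback genes with enough reads (not ETV4 and PHLDA1) 0 were called, where 0% of all genes were, with and without the block, and 0 had an unadjusted p under 0.05 without it, against 4 of all genes. SPRED1 had a log2 ratio of 0.69 (SE 0.76, adjusted p = 1.00), SPRY2 of 0.65 (SE 0.70) and DUSP4 of 0.44 (SE 0.71). For the transcript with most coding reads SPRY2 stood at 1.39. Without control siRNA replicate 1 and without the block SPRED1 stood at -0.09, SPRY2 at 0.16 and DUSP4 at 0.26. The batches are not balanced in that fit, and the SPRED1 share was higher in batch 2 with either siRNA. Within batch 2 that share was 9.83 points higher with CDH3-AS1 siRNA.

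**Figure D4:**
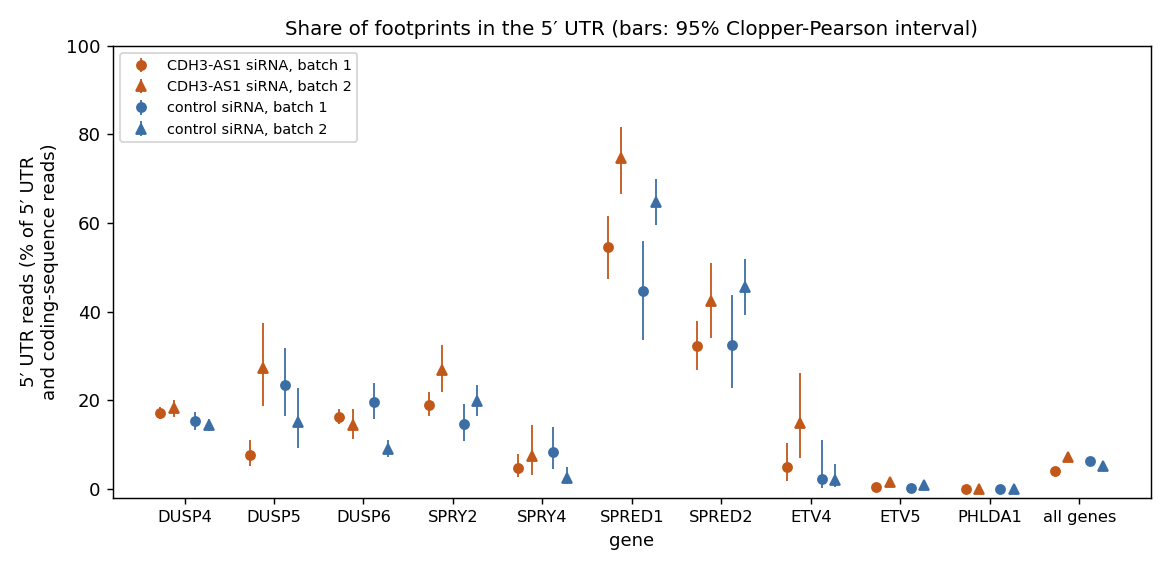
Reads in the 5′ UTR as a percentage of 5′ UTR and coding-sequence reads for each gene and for all genes together, per library, with 95% Clopper-Pearson intervals; colours and symbols mark the siRNA and batch. SPRED1 and SPRED2 stand above the other genes in all 4 libraries, and PHLDA1 and ETV5 lie near 0.

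In the 3′ UTR the SPRED genes and SPRY4 had the larger shares of all their reads, at 5.24% for SPRED1, 5.35% for SPRED2 and 5.22% for SPRY4 over all libraries, where the median gene had 1.51%. The other members lay between 0.638% (ETV5) and 2.66% (DUSP4). CDH3-AS1 siRNA replicate 1 alone held 22 of the 42 SPRED1 reads and 29 of the 43 SPRED2 reads in the 3′ UTR. SPRY4 had 10.3% in control siRNA replicate 1, the library with the largest 3′ UTR share over all genes (3.48%).

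Between the batches, neither calls in either direction nor values without overlap were more frequent among the feedback genes than over all genes. In the fit with siRNA as a covariate, DUSP5 was called lower in batch 2 by edgeR's quasi-likelihood test, at 27.3 and 18.0 CPM in batch 2 against 49.4 and 52.3 CPM in batch 1 (CDH3-AS1 siRNA, then control), a log2 fold change of -1.18 (SE 0.33, adjusted p = 0.00439). That is 1 of 10 genes, where 15.8% of all genes were called in either direction, 9.52% higher and 6.3% lower. The batches did not overlap for 4 of the 10 genes, where 54.4% of all genes did not: DUSP5, DUSP6 and SPRY2 had both batch 2 libraries below both of batch 1 (25.7% of all genes), and PHLDA1 had both above (28.7%). With batch alone in the model DUSP5 had an adjusted p of 0.0578, and with DESeq2 0.0608, so the call did not hold. SPRY2 had a log2 fold change of -0.58 (SE 0.27, adjusted p = 0.134), SPRY4 of -0.48 (SE 0.30, adjusted p = 0.292) and DUSP6 of -0.47 (SE 0.25, adjusted p = 0.206), and 8 of the 10 had a value below 0. With 1 library left out SPRY4 ran from -0.82, without CDH3-AS1 siRNA replicate 1, to -0.10, without control siRNA replicate 1. DUSP6 ran from -0.75, without control siRNA replicate 1, to -0.22, without CDH3-AS1 siRNA replicate 1, and SPRY2 from -0.73 to -0.45. The median of the 10 was -0.14, beside 0.01 over all genes, and the share of all genes with a value below 0 was not counted.

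Other genes of the pathway were taken from 3 lists. Of 28 tested genes of the ERK cascade, from adaptors and RAS to the kinases that ERK activates, 0 were called with or without the block. The median log2 fold change was -0.01, with 6 higher and 10 lower in both batches, where 26.5% and 27.8% of all genes were. RPS6KA2, an ERK-activated kinase, stood at a log2 fold change of -0.58 (SE 0.38), and KSR1, a scaffold for RAF and MEK, at 0.70 (SE 0.42). Without control siRNA replicate 1 they stood at -0.48 and 0.79.

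Of 15 tested receptors and phorbol ester inputs 0 passed without the block. With it 2 were called lower and 0 higher, where 0.697% and 0.927% of all genes were, namely the stem cell factor receptor KIT (log2 fold change -1.16, SE 0.25, adjusted p = 0.00121 by edgeR's quasi-likelihood test) and the endothelin receptor EDNRB (-0.88, SE 0.24, adjusted p = 0.0171). KIT had 72.7 and 164 CPM with CDH3-AS1 siRNA, against 148 and 401 CPM with control siRNA, and EDNRB had 330.1 and 211 CPM with CDH3-AS1 siRNA, against 635 and 372 CPM with control siRNA. With the block no residual degree of freedom is left once a library is out. Without the block and without control siRNA replicate 1 KIT stood at -1.74 and EDNRB at -0.42, in place of -1.22 and -0.89 with all libraries. The batches are not balanced in that fit. Within batches 1 and 2 the log2 ratios were -1.02 and -1.29 for KIT and -0.94 and -0.82 for EDNRB. Protein kinase C beta, PRKCB, had 39.8 and 71.9 CPM with CDH3-AS1 siRNA, against 96.5 and 94.4 CPM with control siRNA (-0.78, SE 0.38). The fibroblast growth factor receptor FGFR1 had 18.5 and 30.4 CPM with CDH3-AS1 siRNA, against 38.4 and 45.1 CPM with control siRNA (-0.78, SE 0.39). Neither passed the test, with adjusted p of 0.132 and 0.308 with the block, and without control siRNA replicate 1 they stood at -0.74 and -0.86. The median of the list was -0.18, and its values ran from -1.22 to 0.64. In both batches 5 of its genes were higher and 6 lower, where 26.5% and 27.8% of all genes were.

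Of 18 tested genes from a list of other ERK-induced genes 0 passed without the block. With it 1 was called lower and 0 higher, where 0.697% and 0.927% of all genes were, namely the immediate early transcription factor EGR1. EGR1 had 31.0 and 8.69 CPM with CDH3-AS1 siRNA, against 46.9 and 49.5 CPM with control siRNA, so the batch 2 library with CDH3-AS1 siRNA stood apart (-1.41 with the block, SE 0.34, adjusted p = 0.00529 by edgeR's quasi-likelihood test). Its log2 ratios were -0.60 in batch 1 and -2.51 in batch 2, a spread that the SE with the block does not take in. Without the block EGR1 stood at -1.23, at -1.21 without control siRNA replicate 1 and at -0.63 without CDH3-AS1 siRNA replicate 2. The receptor kinase EPHA2 had 93.8 and 55.7 CPM with CDH3-AS1 siRNA, against 61.9 and 28.8 CPM with control siRNA (0.74, SE 0.48). MAFF, a small MAF transcription factor, had 75.1 and 64.4 CPM with CDH3-AS1 siRNA, against 36.8 and 48.3 CPM with control siRNA (0.70, SE 0.34). PLAUR, the urokinase receptor, had 213 and 104 CPM with CDH3-AS1 siRNA, against 124 and 83.6 CPM with control siRNA (0.62, SE 0.44). These 3 were higher with CDH3-AS1 siRNA in both batches and did not pass the test. Without control siRNA replicate 1 EPHA2 stood at 1.40, MAFF at 0.56 and PLAUR at 0.96. In this list 6 genes were higher and 3 lower in both batches, where 26.5% and 27.8% of all genes were. The median of the list was 0.16.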

How the data were processed

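Ribosome footprints of Hermes 4B melanocytes were measured in 2 libraries per siRNA. Per the file headers, the deposited tables give raw counts of reads in the 5′ UTR, coding sequence and 3′ UTR of each transcript, and RPKM values that the authors scaled, as checked on the values, to the library's total over all regions. Lengths are the other columns used. The submitters' processing notes name hg38 and DESeq2; the aligner, the counting rule, read filters and whether strand was used are not stated there or in the labels. RNA-seq was not analysed here, so RNA level and ribosome load per RNA cannot be told apart. Coding reads were summed by gene name, so genes with 2 or more transcripts depend on how reads were divided among them.

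Coding counts were tested in edgeR 4.0.16 (R 4.3.3; filterByExpr with minimum count 10 and total 15; TMM; quasi-likelihood test; prior count 2; Benjamini-Hochberg over 10469 genes; threshold 0.05) without a covariate. SE is the log2 fold change over the square root of F. With siRNA and batch both in the model 1 residual degree of freedom is left. In those fits of coding counts the SE came from the trend over all genes, with no weight on a gene's own spread. The labels give same-numbered libraries a shared batch, and their deviations from group means correlated (r = 0.58), so they are paired. Alternatives were the block, DESeq2 1.42.0, limma 3.58.1 on log2(RPKM + 1) or log2(RPKM + 0.1), other scaling, filters, transcripts and regions, and each library left out. Scripts were tested on simulated data. A gene with 3 coding reads stood at 0.475, 1.18, 1.60 and 0.530 CPM in CDH3-AS1 siRNA replicates 1 and 2 and control siRNA replicates 1 and 2. Coordinates are from an NCBI gene table of GRCh38.p14, in which all 10 symbols matched. The members and lists were chosen with earlier results of these data known. All 10 members are described. Up to 4 genes per further list are named, those with the smallest p with the block among genes of 1 direction in both batches. Some genes that this rule names are not reported here.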

Additional observations from a re-analysis of the deposited data

How the results depend on the processing

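No feedback gene was called between the siRNAs under any alternative run, including the replicate block, and the block changed no call among them. Over these 15 settings (14 for SPRED1 and ETV4, which had fewer than 50 reads in a library) SPRED1 stayed between -0.77 and -0.27, SPRY4 between -0.90 and -0.27, ETV4 between -0.48 and -0.29, SPRED2 between 0.08 and 0.42 and PHLDA1 between 0.00 and 0.17. Over all genes, where edgeR called 0, the replicate block gave 170 calls, DESeq2 2, DESeq2 with the block 57, limma on log2(RPKM + 1) with the block 7 and no filter on low counts 52; leaving out each library gave 0 to 73. The median of the 10 genes was between -0.27 and 0.14 with a library left out. Small values changed sign: DUSP4 was 0.0030 in DESeq2 with the block and 0.043 with reads of all regions, and ETV5 was -0.0101 with limma on log2(RPKM + 1), with or without the block, and -0.0102 on log2(RPKM + 0.1). With a library left out DUSP4 ran from -0.20 to 0.24, DUSP5 from -0.41 to 1.12, DUSP6 from -0.070 to 0.63, ETV5 from -0.085 to 0.15 and SPRY2 from -0.47 to 0.35. The cause was not tested. Between batches, 1657 genes were called with siRNA as a covariate, 538 with batch alone, 694 with DESeq2 and 29 to 1280 with a library left out. Of the feedback genes, 0 were called with batch alone (DUSP5 -1.17) and 0 with DESeq2 (-1.22), and 0 to 1 with a library left out. There DUSP5 ran from -1.46 to -0.89, DUSP4 from -0.23 to 0.12, SPRED1 from -0.45 to 0.29, SPRED2 from -0.35 to 0.018, ETV4 from -0.071 to 0.33 and ETV5 from -0.20 to 0.0068. For the transcript with most coding reads the ETV4 difference in 5′ UTR share was 0.727 points in place of 7.81, that of SPRY2 2.49 in place of 5.71, that of DUSP6 -0.0933 in place of 1.08 and that of SPRY4 0 in place of 0.625. Without control siRNA replicate 1 the tested 5′ UTR over coding log2 ratio changed sign for SPRED1 (-0.0908), SPRED2 (-0.579) and ETV5 (-0.129). That fit had no block, so its batches were not balanced. With a library left out and no block KIT ran from -1.91 to -0.32, EDNRB from -1.25 to -0.42 and EGR1 from -2.39 to -0.63, an alternative added after seeing the data. SPRED1 rested on 35 to 120 coding reads per library and ETV4 on 47 to 150. Their SE of 0.38 and 0.36 without the block was near the 0.32 of PHLDA1, which had 1979 to 7139 per library. With the block the SE was 0.38 for SPRED1 and 0.36 for ETV4, against 0.21 for PHLDA1.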
